A study of Columba livia with 18 samples.

Results

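The RAB GTPase family, without RAB5, was taken as every gene model whose annotated symbol is RAB followed directly by a digit, without RAB5A, RAB5B and RAB5C. The table deposited by the authors holds 20918 gene models, and the rule took 58 of them, with 50 distinct symbols. For 7 symbols there was more than 1 gene model, 15 gene models in all: 6 symbols had 2 and RAB10 had 3. The Ras family domain was annotated in 55 of the 58 and was not annotated in RAB35, RAB28 (CLIV_002412) and RAB10 (CLIV_019635). The symbols are those of the most similar protein of another vertebrate, so a pigeon gene model carries a name by similarity only.

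RAB proteins are small GTPases that act as switches of vesicle traffic. In the GTP-bound form a RAB sits on the membrane of a particular compartment and recruits effectors such as tethers, motors and kinases, and in the GDP-bound form a GDP dissociation inhibitor draws it back into the cytosol. Guanine nucleotide exchange factors (GEFs) switch a RAB on and GTPase-activating proteins (GAPs) switch it off. In hair cells, the mechanosensory cells of the inner ear, membrane traffic serves the apical surface with its hair bundle as well as the ribbon synapse at the base. The cuticulosome is an organelle rich in iron that lies in the cuticular plate of some hair cells of birds, and the comparison described here asked whether transcripts of the RAB family differ between hair cells that contain one and hair cells that do not.

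The samples were pools of 30 auditory hair cells with cuticulosomes and pools of 30 auditory hair cells without cuticulosomes from Columba livia aged 1 year, untreated, with no genetic change stated in the sources used here. The cells came from the basilar papilla, the hearing organ in the cochlear duct, after removal of the lagena and light trypsin treatment, and were sorted by eye under a light microscope and picked with a micropipette. Each of 9 birds gave 1 library of each cell type, 18 libraries in all. By the flow cell and lane in the library names, the birds fell into 3 sets of 3, here called sequencing runs. Birds 433, 434 and 435 were in run 1, birds 450, 451 and 458 in run 2, and birds 513, 514 and 515 in run 3. Levels are given as FPKM (fragments per kilobase of transcript, scaled to the mapped reads of the library), which is a level per length. A comparison of levels between gene models also depends on how complete each model is and how well its reads were captured. This was not tested.

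The hair cell label was borne out by OTOF and TMC2, the genes of the vesicle protein otoferlin and of a transduction channel subunit, with means of 1193 and 1039 FPKM. SOX2, a defining marker of supporting cells, was at 0 FPKM in 6 of the 9 pools with and 7 of the 9 pools without cuticulosomes. GFAP, which the study also took as a supporting cell marker, was at 0 in 8 and 9. Other markers were present, and 17 of 24 supporting cell marker models averaged above 1 FPKM. HBB of red blood cells (CLIV_015953) averaged 2093 FPKM and NEFL of neurons (CLIV_012488) 228 FPKM, both above 0 in every library. The other HBB and NEFL models averaged 0.812 FPKM or less. The library with cuticulosomes of bird 435 stood apart: its summed FPKM of 26 hair cell marker models was 1663, against 8806 to 21928 in the other libraries with cuticulosomes and 6213 to 21873 in those without. Its sum of supporting cell markers (4033 FPKM) was above that of every other library, as was its number of gene models above 0 (16008), while the library without cuticulosomes of bird 435 held the highest sum of red blood cell markers (37353 FPKM). Over all birds the supporting cell list of 24 gene models summed to 273 to 4033 FPKM with and 223 to 2261 FPKM without cuticulosomes, and the red blood cell list of 7 to 503 to 4708 FPKM and 480 to 37353 FPKM. The medians of the red blood cell list were 2714 FPKM with and 960 FPKM without, and the HBB mean above includes the library with the sum of 37353 FPKM. A neuron and glia list of 22 summed to 549 to 2675 FPKM with and 637 to 971 FPKM without cuticulosomes. The part of these other cells in the results below was not tested, and values without bird 435 are given where they bear on a result. In such pools fewer cells of a type and less RNA per cell cannot be told apart.

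The members with the highest transcript levels were ones assigned to recycling, late endosomal and Golgi compartments. These groups also held low members, with lowest means of 0, 1.03 and 0.0111 FPKM, and traffic itself was not measured. Of the 58 gene models, 46 had a mean above 1 FPKM over the 18 libraries and were tested (79.3%, against 54.5% of all gene models), 6 of them with a mean above 100 FPKM, 17 between 10 and 100 FPKM and 23 between 1 and 10 FPKM. The 5 highest, RAB11A, RAB19, RAB7A, RAB14 and RAB11B, held 54.8% of the summed FPKM of the family. Above 1 FPKM in all 18 libraries were 17 members, and 22 were above 0 in all of them. At the other end, 9 of the tested members were listed at 0 in at least 9 libraries, and RAB17, known from epithelial cells of mammals, and RAB38, which works on melanosomes, were listed at 0 in all 18. The median level of the tested members was 11.4 FPKM, against 9.84 FPKM for all gene models tested.

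**Figure D1:**
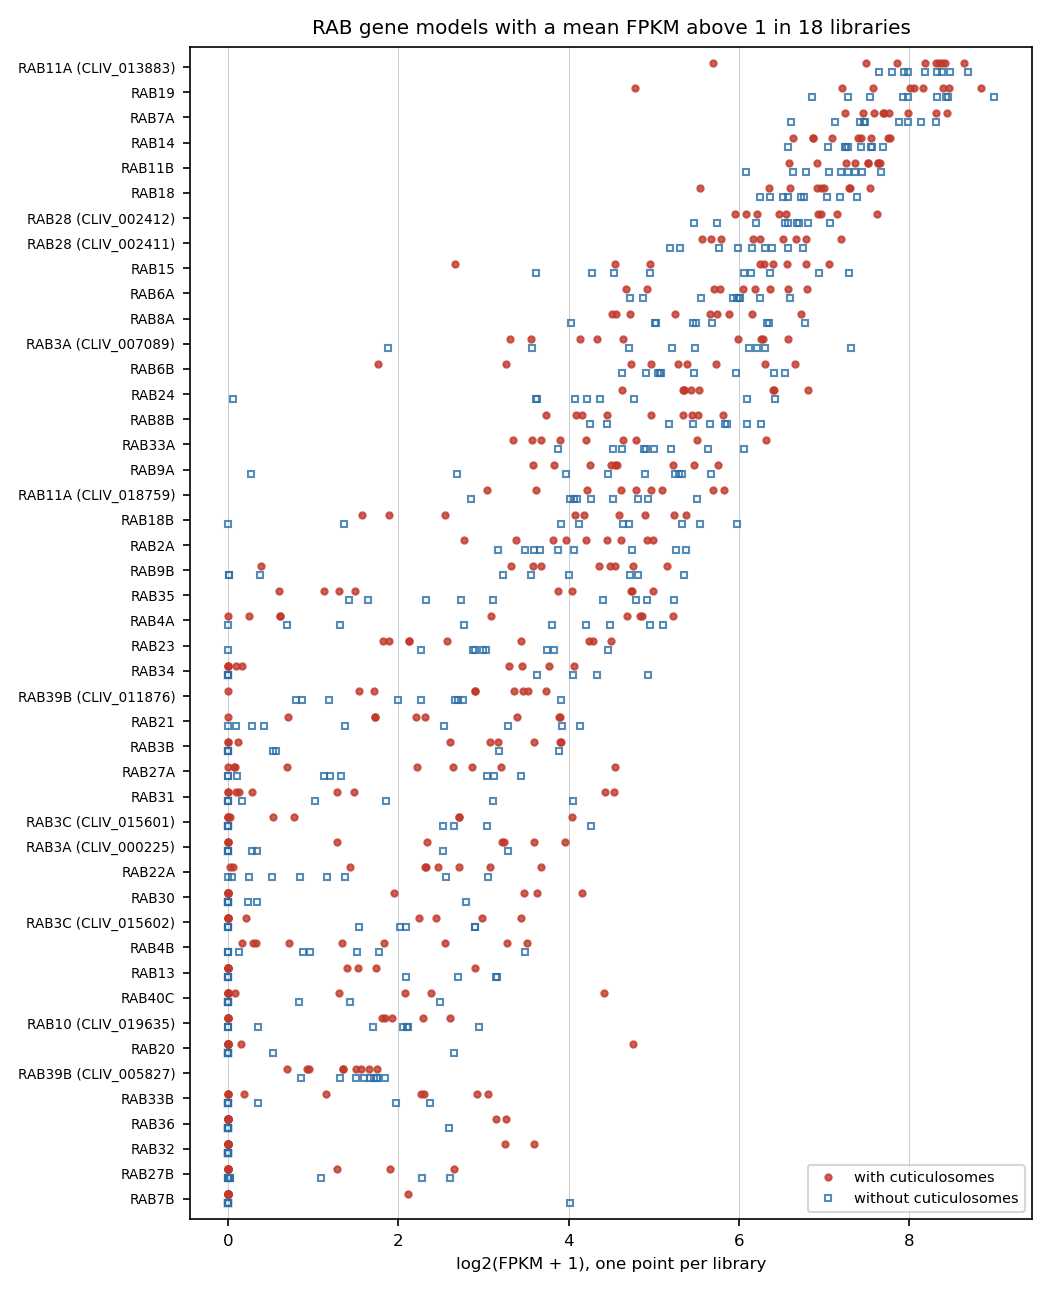
Level of the 46 tested RAB gene models in each of the 18 libraries, in order of mean level, as log2(FPKM + 1). Filled red circles are the 9 libraries with cuticulosomes and open blue squares, drawn under them, the 9 without; the cell types overlap in all 46, and the 5 highest models hold 54.8% of the summed FPKM.

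None of the 46 tested members, and none of the 11393 gene models tested in all, passed an adjusted p of 0.05 between hair cells with and without cuticulosomes (limma, with log2(FPKM + 1) as the measure, birds as blocks and Benjamini-Hochberg adjustment over all gene models, 0.0% called, smallest adjusted p = 0.902). The study, with its count test on the same libraries, did report genes past an adjusted p of 0.05 in both directions, RAB5B among them. The absence here is that of limma on FPKM and does not mean that no gene differs. At an unadjusted p under 0.05, limma gave 3 of the 46 members as higher with cuticulosomes (6.52%, against a background of 3.27%, 372 of the 11393) and 0 as lower (background 2.01%, 229 gene models). The 3 were RAB24, RAB3B and a neighbouring gene model named RAB3A (CLIV_000225). The levels of RAB3B and its neighbour moved together, so their calls are not independent of each other. The log2 fold change was above 0 in 26 of 46 members (56.5%, against 53.9% of all gene models tested), with a median of 0.14 in the members and 0.05 in all. No tested member had 9 libraries with cuticulosomes that all lay above or all lay below the 9 without, and no other gene model did either (0.0%). All fold changes are with over without cuticulosomes on the log2(FPKM + 1) scale, which understates the change of low genes.

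**Figure D2:**
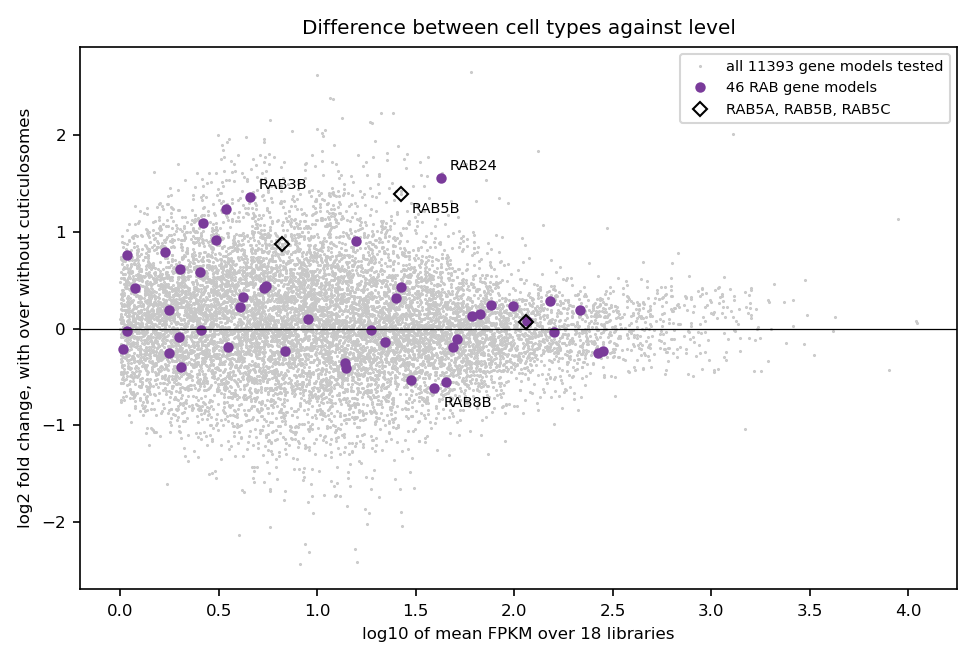
Log2 fold change with over without cuticulosomes (vertical axis) against the log10 of the mean FPKM over 18 libraries (horizontal axis) for the 11393 gene models tested, in grey, with the 46 RAB gene models as filled circles and RAB5A, RAB5B and RAB5C as open diamonds. The members lie on both sides of 0, 26 above and 20 below, within the spread of all gene models, and RAB24 at 1.56 is the highest of them.

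RAB24 had the smallest p of the family. RAB24 is an unusual member with low GTPase activity in mammals that has been linked to autophagy. Its gene model (CLIV_000801, scaffold 79) ranged over 23.8, 42.4 and 111.6 FPKM (lowest, median and highest, as in all such sets here) with cuticulosomes, against 0.0367, 17.6 and 84.9 FPKM without. The median with cuticulosomes was above that without, the ranges overlapped, and the lowest library by far was the one without cuticulosomes of bird 515. The log2 fold change was 1.56 with an SE of 0.45 (limma, p = 0.0031, adjusted p = 0.902), and RAB24 was higher with cuticulosomes in 8 of 9 birds (p = 0.0078 in an exact two-sided permutation test that flips the sign of the difference of each bird, here called the exact sign-flip test, where 9 birds allow no p below 0.0039). The exception was bird 514, with 83.6 FPKM with and 84.9 FPKM without cuticulosomes.

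By run, the log2 fold change of RAB24 was 1.15 in run 1, 1.22 in run 2 and 2.31 in run 3. It was 1.51 without bird 435, and with 1 bird left out at a time it lay between 1.09 and 1.76 with limma p between 0.0022 and 0.0077. The lowest of these values came without bird 515, in which RAB24 stood at 39.8 FPKM with and 0.0367 FPKM without cuticulosomes. Next to RAB24 on scaffold 79 lies a gene model for PRELID1, a mitochondrial lipid transfer protein, which has the same place beside RAB24 in the RefSeq annotation and does not overlap it there. PRELID1 (CLIV_000800) averaged 171 ± 74.4 FPKM with cuticulosomes and 136 ± 54.2 FPKM without (SD, n = 9 each), with a log2 fold change of 0.35 (SE 0.23, limma adjusted p = 0.902), and was higher in 7 of 9 birds.

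**Figure D3:**
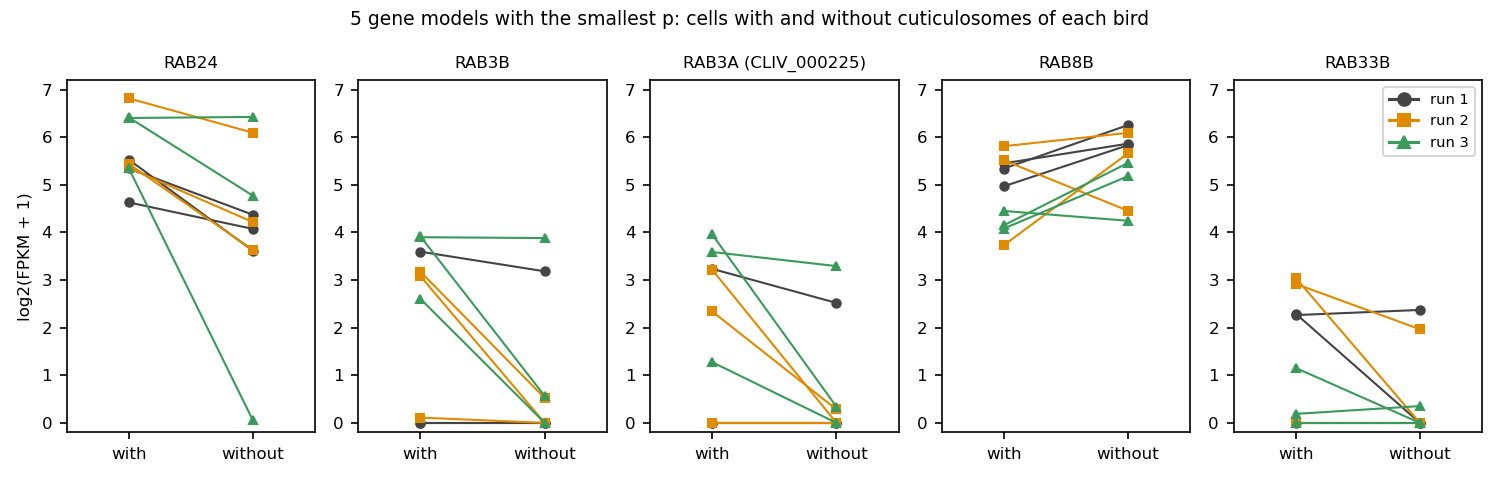
The 5 RAB gene models with the smallest p, as log2(FPKM + 1) in cells with cuticulosomes (left) and without (right), with 1 line per bird and the run given by colour and marker (circles run 1, squares run 2, triangles run 3). RAB24 is higher with cuticulosomes in 8 of 9 birds and RAB3B in 7 (only slightly in birds 458 and 514), while RAB8B is lower in 7 of 9.

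RAB3 proteins sit on synaptic and secretory vesicles, where they act with RIM proteins ahead of exocytosis. The gene model that led this subfamily in level was RAB3A (CLIV_007089, scaffold 194), the main synaptic vesicle RAB of mammalian brain, with a mean of 49.1 FPKM and a log2 fold change of -0.19 (SE 0.39, limma adjusted p = 0.956). It was above RAB3B by 3.52 on the log2 scale in the mean of both cell types, in 8 of 9 birds, and above the 2 RAB3C models by 3.81 and 3.84, in 9 of 9 birds (exact sign-flip test adjusted over 18 paralogue pairs, p = 0.0176 for RAB3B and 0.0117 for each RAB3C model). A gene model for MPV17L2 follows it on scaffold 194, which is also the neighbour of RAB3A in RefSeq. There the genes overlap, and since the libraries do not mark strand, reads from the overlap cannot be told apart.

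RAB3B, a close relative of RAB3A, and the model next to it were called at the unadjusted threshold. RAB3B (CLIV_000224, scaffold 7) had 0, 7.46 and 14.1 FPKM with cuticulosomes, against 0, 0 and 13.7 FPKM without. It was listed at 0 in both libraries of birds 433 and 434, was higher with cuticulosomes in the other 7 birds, and the ranges of both cell types overlapped. The difference was slight in bird 458 (0.0803 FPKM with, 0 without) and bird 514 (13.9 FPKM with, 13.7 FPKM without). On the log2 scale it was 0.41 in bird 435 and 2.60 to 3.35 in birds 450, 451, 513 and 515. Birds 435 and 514 had levels above 8 FPKM in both cell types. Its log2 fold change was 1.36 (SE 0.55, limma p = 0.0245, adjusted p = 0.902), with 7 birds higher and 0 lower (exact sign-flip p = 0.0156). It was 0.14 in run 1, 1.95 in run 2 and 1.99 in run 3.

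The next gene model on scaffold 7, also annotated as RAB3A (CLIV_000225), had 0, 4.06 and 14.5 FPKM with cuticulosomes, against 0, 0 and 8.79 FPKM without. As for RAB3B, the libraries with cuticulosomes of birds 514 and 515 were the highest and the groups overlapped. This gave a log2 fold change of 1.24 (SE 0.52, limma p = 0.0285, adjusted p = 0.902), with 6 birds higher and 0 lower (exact sign-flip p = 0.0313). The sign-flip test allows no lower p here, since birds 433, 434 and 458 were at 0 in both cell types. Across the 18 libraries both gene models were listed at 0 in 7, only CLIV_000225 in 1, and the Pearson correlation of their log2 levels was 0.977, a description of points that share libraries. The older pigeon annotation places CLIV_000225 between RAB3B and TXNDC12, RefSeq holds 1 RAB3A beside MPV17L2, and in RefSeq RAB3B lies beside NRDC, whose older name NRD1 is the gene model before RAB3B on scaffold 7. The name of CLIV_000225 is therefore uncertain. With 1 bird left out at a time, the log2 fold changes lay between 1.11 and 1.53 for RAB3B and between 0.95 and 1.4 for CLIV_000225, and the limma p reached 0.0641 and 0.0778. Without bird 450, bird 451 or bird 515, or without run 2 or run 3, only RAB24 stayed under an unadjusted p of 0.05 among the 3, and without bird 513 RAB3B did not.

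**Figure D4:**
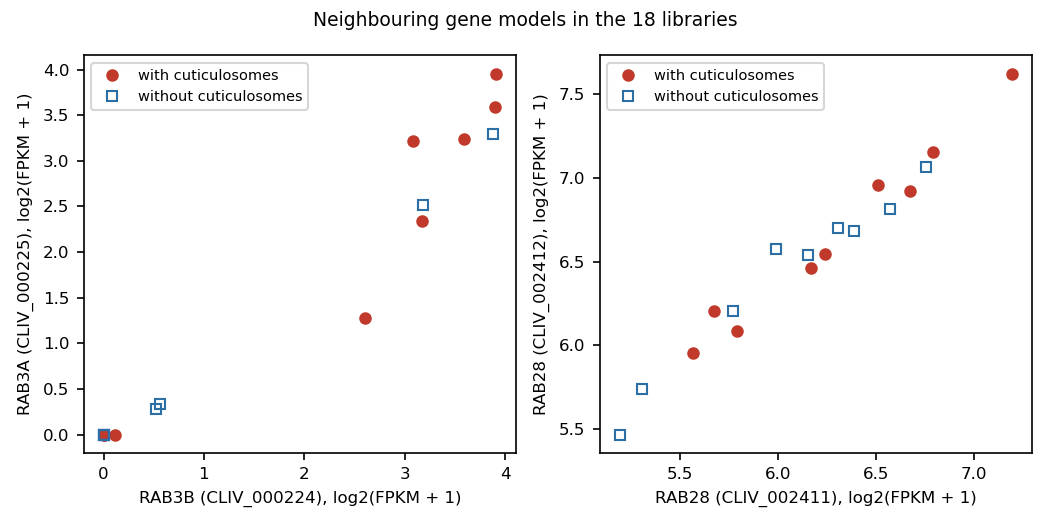
Log2(FPKM + 1) of neighbouring gene models against each other in the 18 libraries, RAB3B and RAB3A (CLIV_000225) on the left and the 2 RAB28 models on the right; filled red circles are libraries with and open blue squares libraries without cuticulosomes. Each set follows a line (Pearson correlation 0.977 and 0.985), and 7 libraries lie at 0 for both models on the left.

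Of the 9 gene models for regulated secretion, 7 were tested, 3 with a higher and 4 with a lower mean with cuticulosomes, at a median log2 difference of -0.01, and those not yet described were low. The RAB3C models (CLIV_015601 and CLIV_015602, scaffold 53) were also neighbours, had means of 3.51 and 2.57 FPKM, were both listed at 0 in 7 libraries and had log2 fold changes of -0.19 and -0.01. RAB27A and RAB27B, which dock secretory granules and lysosome-related organelles, had means of 4.18 and 1.09 FPKM, with RAB27A above RAB27B by 0.99 on the log2 scale in 8 of 9 birds (exact sign-flip test adjusted over 18 pairs, p = 0.0234). The highest RAB27A level, 22.3 FPKM, was in the library with cuticulosomes of bird 435. RAB26, a RAB of secretory granules, was below the level for testing. It was above 0 in 3 libraries with cuticulosomes (0.476 FPKM in bird 433, 3.04 in bird 435 and 7.78 in bird 515) and listed at 0 in all 9 without. RAB37, also of secretory granules, reached no more than 0.909 FPKM.

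RAB8A and RAB8B carry vesicles toward the plasma membrane and the cilium. RAB8B (scaffold 87) was the member with the smallest p among those lower with cuticulosomes. It had 12.3, 30.3 and 55.1 FPKM with cuticulosomes, against 17.9, 49.7 and 75.4 FPKM without. The groups overlapped, and the cells with cuticulosomes were lower in 7 of 9 birds, the exceptions being birds 450 and 514. RAB8B had a log2 fold change of -0.62 (SE 0.33, limma p = 0.0772, adjusted p = 0.902, exact sign-flip p = 0.0664), which was below 0 in each run, at -0.73, -0.38 and -0.74. Without bird 450 the unadjusted p of limma was 0.0161 at a log2 fold change of -0.83. With any other bird left out this p was 0.0529 or more. It was highest without bird 458, at 0.194 with a log2 fold change of -0.45. RAB8A had a mean of 51.4 FPKM and a log2 fold change of -0.10 (SE 0.30), and did not differ from RAB8B in level beyond the spread between birds (0.38 on the log2 scale, exact sign-flip test adjusted over 18 pairs, p = 0.352).

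RAB11A and RAB11B mark the recycling endosome and feed membrane to the apical surface. RAB11A (CLIV_013883, scaffold 89) was the most abundant member, rank 376 among all gene models, with 50.8, 316.1 and 397.2 FPKM with cuticulosomes, against 199.7, 288.8 and 410.5 FPKM without. The library with cuticulosomes of bird 450 was low and the others overlapped throughout. Its log2 fold change was -0.23 (SE 0.23, limma adjusted p = 0.903), and it was 0.050 without run 2, which holds bird 450. RAB11B (scaffold 679) had 95.4, 181.3 and 201.4 FPKM with cuticulosomes, against 67.0, 145.7 and 203.1 FPKM without, which overlapped at a log2 fold change of 0.28 (SE 0.24, limma adjusted p = 0.902), higher in 6 of 9 birds. In run 3 all 3 birds were higher with cuticulosomes, and without run 3 the value was -0.059. RAB11A (CLIV_013883) was above RAB11B in 17 of 18 libraries, by 0.84 on the log2 scale (8 of 9 birds, exact sign-flip test adjusted over 18 pairs, p = 0.0176). A further gene model annotated as RAB11A (CLIV_018759, scaffold 1374) had a mean of 25.1 FPKM and a log2 fold change of 0.31 (SE 0.40). RAB11B was above this model by 2.70 on the log2 scale in 9 of 9 birds (exact sign-flip test adjusted over 18 pairs, p = 0.0117).

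Of 21 gene models for recycling and for apical or ciliary delivery, 16 were tested, 8 with a higher and 8 with a lower mean with cuticulosomes, at a median log2 difference of 0.03. RAB14 (scaffold 642), which moves cargo between the Golgi and early endosomes, had 98.1, 167.0 and 216.9 FPKM with cuticulosomes, against 94.5, 154.0 and 205.3 FPKM without. These ranges were nearly the same, and the log2 fold change was -0.03 (SE 0.19, limma adjusted p = 0.988). Its coefficient of variation over the 18 libraries was 23.8%. RAB28, a RAB tied to cilia and photoreceptors in mammals, had 2 neighbouring gene models on scaffold 38 that moved together (Pearson correlation of log2 levels 0.985 over 18 libraries). CLIV_002412, without the annotated Ras domain, had 60.9, 92.5 and 196.2 FPKM with cuticulosomes, against 43.3, 94.4 and 132.8 FPKM without. CLIV_002411, which holds the domain, had 46.4, 74.7 and 145.4 FPKM with cuticulosomes, against 35.6, 70.2 and 106.8 FPKM without. Both overlapped between the cell types, with the highest value in the library with cuticulosomes of bird 514 and both log2 fold changes at 0.24 (SE 0.24 and 0.25, limma adjusted p = 0.903 for both), higher in 6 of 9 birds. RefSeq holds 1 RAB28 between HS3ST1 and NKX3-2, the same neighbours as the 2 models have here, and whether they are parts of 1 gene was not tested.

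RAB15, a RAB of neurons that acts in endocytic recycling, had a mean of 66.9 FPKM. RAB35, of a fast recycling route from the plasma membrane, and RAB4A, of rapid recycling from early endosomes, averaged 13.9 and 13.8 FPKM, and RAB23, an inhibitor of hedgehog signalling at the cilium in the mouse, averaged 9.01 FPKM. Their log2 fold changes lay between -0.41 (RAB35) and 0.15 (RAB15), with unadjusted p of 0.472 or more in limma. RAB4A was above RAB4B by 1.60 on the log2 scale (8 of 9 birds, exact sign-flip test adjusted over 18 pairs, p = 0.0352). RAB13, of tight junctions, RAB40C, whose family carries a SOCS box for a ubiquitin ligase, and 1 of the RAB10 models (CLIV_019635) averaged 1.99 to 2.04 FPKM. RAB10 serves exocytic and endosomal recycling, and its 3 models were all low, with the neighbours CLIV_019635 and CLIV_019636 on scaffold 1271 both listed at 0 in 6 libraries. RAB12, RAB40B and the other 2 RAB10 models were not tested, with means of 0.434 to 0.810 FPKM.

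All 4 gene models of the late endosome and lysosome were tested, 3 with a higher and 1 with a lower mean with cuticulosomes, at a median log2 difference of 0.31. RAB7A (scaffold 277), the highest of them, directs the fusion of late endosomes with lysosomes. RAB7A had 150.2, 206.7 and 348.0 FPKM with cuticulosomes, against 96.6, 178.1 and 315.9 FPKM without. The groups overlapped for most of their range, and the cells with cuticulosomes were higher in 7 of 9 birds. Between the cell types the log2 fold change was 0.20 (SE 0.18, limma p = 0.292, exact sign-flip p = 0.18), at 0.24 in run 1, 0.50 in run 2 and -0.16 in run 3. RAB7B, in mammals a RAB of the route from endosomes to the trans-Golgi network, was above 0 in only 2 libraries, at 3.32 FPKM with cuticulosomes in bird 435 and 15.2 FPKM without cuticulosomes in bird 514, and RAB7A was above it by 7.36 on the log2 scale in 9 of 9 birds (exact sign-flip test adjusted over 18 pairs, p = 0.0117). RAB9A and RAB9B, which return receptors from late endosomes to the trans-Golgi network, averaged 26.5 and 15.7 FPKM, with log2 fold changes of 0.43 (SE 0.56) and 0.91 (SE 0.75). RAB9A was lower with cuticulosomes in 5 of 9 birds, and its mean difference was -0.13 without bird 458, which had 36.5 FPKM with and 0.207 FPKM without cuticulosomes. RAB9B was higher with cuticulosomes in only 4 of 9 birds, and its mean difference was 0.38 without bird 433, which had 34.7 FPKM with and 0.00879 FPKM without cuticulosomes. RAB32, which acts with RAB38 on lysosome-related organelles, was above 0 only in 2 libraries with cuticulosomes, at 11.0 FPKM in bird 435 and 8.54 FPKM in bird 513. It thus passed the level for testing only through the cell type in which it was higher.

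Among endosomal RABs other than RAB5, all 5 gene models were tested and all 5 had a mean difference above 0 (against 53.9% of all gene models tested), with a median of 0.42. They were RAB24, described above, RAB22A (0.92, SE 0.52, limma adjusted p = 0.902, higher in 6 of 9 birds), RAB21 (0.42), RAB31 (0.23) and RAB20 (0.19). RAB31 was at -0.068 and RAB20 at -0.048 without bird 435, which left 3 of 5 above 0, and without 1 other bird RAB31 was at -0.29 (bird 450) and RAB21 at 0.00055 (bird 451). RAB22A, RAB21 and RAB31 act on early endosomes and in their exchange with the trans-Golgi network, and RAB20 on phagosomes of macrophages in mammals. Apart from RAB24 their means were 1.77 to 5.36 FPKM, and each was listed at 0 in at least 1 library. RAB20 was at 26.0 FPKM with and 5.28 FPKM without cuticulosomes in bird 435, and at 0.444 FPKM or less in all other libraries. It passed the level for testing only through the library with cuticulosomes of bird 435, the cell type in which it counted as higher. Its entry in the 5 of 5 is therefore no support for a difference. The groups were assigned by hand, and the count above 0 depends on this. RAB24, linked to autophagy, was placed here. RAB4A (log2 fold change -0.35) and RAB14 (-0.03), which also act at early endosomes, were placed with recycling.

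In the RAB5 genes themselves, which lie outside the family as taken here, RAB5B averaged 39.5 ± 21.7 FPKM with cuticulosomes and 13.7 ± 5.09 FPKM without (SD, n = 9 each). Its log2 fold change was 1.39 (SE 0.32, limma p = 0.000522, adjusted p = 0.902), above 0 in 9 of 9 birds (exact sign-flip p = 0.0039). With 1 bird left out at a time the RAB5B value lay between 1.26 and 1.48, with limma p between 0.000556 and 0.00217. The study, with its count test, reported RAB5B as significantly higher with cuticulosomes after adjustment, and also by qPCR. That test was not repeated here, since it needs counts. RAB5A averaged 7.70 FPKM with and 5.61 FPKM without, and RAB5C 116 FPKM with and 114 FPKM without. Whether the difference of RAB24 was larger or smaller than that of RAB5B was not tested.

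RABs of the endoplasmic reticulum and Golgi made up 17 gene models, 13 of them tested, of which 6 were higher and 7 lower in the mean, with a median of -0.01. RAB19 (scaffold 60), a little-studied RAB of the Golgi, was the highest of them and the next highest of the family after RAB11A. It had 26.4, 265.7 and 457.0 FPKM with cuticulosomes, against 114.8, 251.7 and 507.8 FPKM without. The groups overlapped, and the lowest library of each cell type came from bird 435. RAB19 had a log2 fold change of -0.26 (SE 0.26, limma adjusted p = 0.903), and -0.028 without bird 435. RAB18 (scaffold 122), which acts at the endoplasmic reticulum and lipid droplets, had 45.7, 123.3 and 184.4 FPKM with cuticulosomes, against 74.8, 105.0 and 166.0 FPKM without. They overlapped, with a log2 fold change of 0.08 (SE 0.23, limma p = 0.736), and RAB18 was above RAB18B by 2.91 on the log2 scale in 9 of 9 birds (exact sign-flip test adjusted over 18 pairs, p = 0.0117).

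RAB6A, which drives transport back through the Golgi, averaged 61.2 FPKM, and RAB6B, its form in neurons, 44.8 FPKM, a difference within the spread between birds (0.65 on the log2 scale, exact sign-flip test adjusted over 18 pairs, p = 0.0974). Their log2 fold changes were 0.13 (SE 0.26) and -0.56 (SE 0.36, limma adjusted p = 0.902, lower in 7 of 9 birds). The mean difference of RAB6B was -0.23 without bird 450, which had 2.38 FPKM with and 29.1 FPKM without cuticulosomes. RAB33A and RAB33B are Golgi RABs, and RAB33B also binds the autophagy protein ATG16L1. RAB33A was above RAB33B by 3.78 on the log2 scale (9 of 9 birds, exact sign-flip test adjusted over 18 pairs, p = 0.0117). In all, 10 of the 18 paralogue pairs compared differed in level at an adjusted p under 0.05. The share among pairs of other gene models was not computed, so this count is a description without a background. RAB7B was listed at 0 in 16 of the 18 libraries, so the levels all but fixed the outcome of its pair. The pairs are not independent, since several share a gene model. Both neighbouring RAB3C models were set against RAB3A (CLIV_007089), and RAB11B was paired with both RAB11A models, with opposite directions. RAB33B (scaffold 47) had 0, 1.23 and 7.27 FPKM with cuticulosomes, against 0, 0 and 4.18 FPKM without. Its groups overlapped and 3 birds had 0 in both cell types. Its log2 fold change of 0.80 (SE 0.44, limma adjusted p = 0.902) came from 4 birds that were higher and 2 that were lower. RAB33A itself had a log2 fold change of -0.53 (SE 0.38, limma adjusted p = 0.902).

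RAB2A, of transport between the endoplasmic reticulum and the Golgi, averaged 18.8 FPKM with a log2 fold change of -0.01, and RAB34, RAB30, RAB36 and the 2 RAB39B models, other RABs located mostly at the Golgi, averaged 1.19 to 6.83 FPKM. RAB30 was at 10.2 to 16.9 FPKM in 3 libraries with cuticulosomes and no higher than 5.94 FPKM in those without. Its log2 fold change was 1.09 (SE 0.64, limma adjusted p = 0.902), and its unadjusted p was under 0.05 without bird 433 and without run 1. RAB39A, RAB43 and the 2 RAB44 models, of which RAB44 is an unusually large RAB known from immune cells of mammals, were not tested. RAB39A was above 0 in 2 libraries, at 6.84 FPKM with cuticulosomes in bird 515 and 8.71 FPKM without cuticulosomes in bird 434.

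Levels were also compared between the sequencing runs. After the levels had been seen, both libraries of each bird were averaged and the 3 runs compared in limma. No gene model passed an adjusted p of 0.05 (0.0% called), and at an unadjusted p under 0.05 limma gave 4 of 46 members (8.70%, against a background of 8.74%, 996 gene models), a share close to the background. They were RAB3A (CLIV_007089), RAB4A, RAB15 and RAB35, each with its lowest median in run 3. RAB3A (CLIV_007089) had medians of 53.0, 77.3 and 10.8 FPKM in runs 1, 2 and 3 over 6 libraries each, with a highest value of 25.1 FPKM in run 3 against a lowest of 23.9 FPKM in run 2 (limma adjusted p = 0.342). RAB4A had medians of 24.7, 21.1 and 0.529 FPKM and reached no more than 5.82 FPKM in run 3. RAB15 was at 69.4 FPKM or more in every library of run 2 and had medians of 71.3, 115.6 and 26.1 FPKM, and RAB35 medians of 26.2, 8.86 and 1.74 FPKM. Run and bird cannot be told apart here, and the day of dissection is not given in the sources used here. The comparison of the cell types was made within birds and so within runs.

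**Figure D5:**
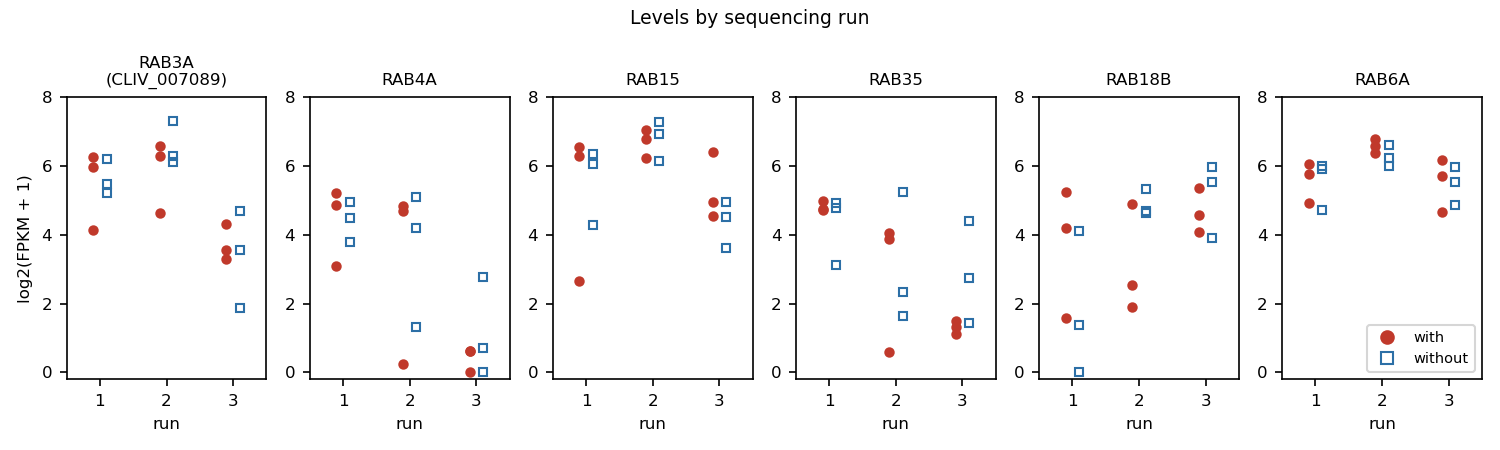
Log2(FPKM + 1) of 6 RAB gene models in runs 1, 2 and 3, with filled red circles for the 3 libraries with cuticulosomes and open blue squares for the 3 without in each run. RAB3A (CLIV_007089) and RAB4A lie lowest in run 3 for most birds, with medians of 10.8 and 0.529 FPKM, while RAB6A, with an unadjusted p of 0.133 in limma, shows no such gap.

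The difference between the cell types was of 1 sign in all 3 runs for 11 members. It was above 0 in each run for 7 of 46 (15.2%, against a background of 14.3%), namely RAB24, RAB3B, RAB3A (CLIV_000225), RAB22A, RAB33B, RAB9B and RAB6A, and below 0 in each run for 4 (8.70%, against a background of 11.0%), namely RAB8B, RAB33A, RAB4A and RAB39B (CLIV_005827). These shares are near those of all gene models. An interaction of cell type and run at an unadjusted p under 0.05 in limma was found for 1 of 46 members (background 4.55%, smallest adjusted p over all gene models = 0.994). This was RAB18B (limma adjusted p = 0.994), with log2 fold changes of 1.84 in run 1, -1.78 in run 2 and -0.46 in run 3.

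Libraries with cuticulosomes held more detected members in the mean. Members above 1 FPKM numbered 28 to 45 with cuticulosomes, with a mean of 35.2 ± 4.79, against 25 to 43 without, with a mean of 32.0 ± 5.43 (SD, n = 9 each). They were more numerous with cuticulosomes in 7 of 9 birds, by 3.22 on average (exact sign-flip p = 0.117, and 3.38 with p = 0.141 without bird 435), a difference within the spread between birds. At the same cut of 1 FPKM, all gene models numbered 8842 ± 1345 against 8434 ± 1181, with 6 of 9 birds higher (exact sign-flip p = 0.109, and 0.219 without bird 435). At a cut of 0 FPKM, members numbered 40.1 against 36.6 in the mean (exact sign-flip p = 0.0781, and 0.125 without bird 435). All gene models above 0 numbered 11109 ± 1898 against 10245 ± 1285, with 8 of 9 birds higher (exact sign-flip p = 0.0156). The mean difference was 865, and 624 without bird 435 (exact sign-flip p = 0.0313). At both cuts the family and the whole table were higher with cuticulosomes in the mean. The relative depth of the libraries, a rough estimate read from the spacing of very low FPKM values, went the other way. The pools with cuticulosomes were the shallower ones in 6 of 9 birds, by 0.33 on the log2 scale (exact sign-flip p = 0.0859, and 0.42 with p = 0.0313 without bird 435), and the estimate ranged between 0.514 (bird 450, with cuticulosomes) and 1.46 (bird 451, without cuticulosomes) relative to the geometric mean of all libraries. The summed FPKM of the family was 2004 ± 148 with and 1923 ± 289 without cuticulosomes (SD, n = 9 each).

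The genes that run the RAB cycle were examined in the same fit. A list of 176 symbols, not all of which had a gene model here, matched 196 gene models, of which 161 were tested. In limma at an unadjusted p under 0.05, 6 were higher with cuticulosomes (3.73%, against the background of 3.27%) and 2 lower (1.24%, against 2.01%), none passed the adjusted threshold, and 88 (54.7%) had a log2 fold change above 0. The 15 symbols listed for RAB escort, prenylation and GDP dissociation matched only 7 gene models, of which 0 higher and 0 lower were called. Of 44 GEF gene models 0 higher and 1 lower (2.27%) were called, and of 36 GAP gene models 1 higher (2.78%) and 0 lower. Of 74 effectors and associated genes 5 were higher (6.76%, against 3.27% of all gene models) and 1 lower (1.35%, against 2.01%).

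The 8 called at an unadjusted p under 0.05 were 4.97% of the 161 tested, close to the 5.28% of all gene models. They are given here as single values only. Higher with cuticulosomes in limma, each at an adjusted p of 0.902, were USP6NL, a GAP for RAB5 (log2 fold change 1.28, SE 0.50, 6 of 9 birds), FYCO1, which links RAB7 vesicles to kinesin (1.43, SE 0.65, 7 of 9), RAB11FIP3, a RAB11 effector (1.43, SE 0.63, 5 of 9), LRRK2, a kinase of RAB8 and RAB10 (1.02, SE 0.42, 8 of 9), RILPL1, which binds RABs phosphorylated by LRRK2 (0.94, SE 0.44, 5 of 9), and ERC2, an active zone protein (0.96, SE 0.44, 6 of 9). Lower were DENND6B, of the DENN domain family of GEFs (-1.11, SE 0.44, lower in 8 of 9), and RIMS2, which binds RAB3 at the active zone (-0.97, SE 0.44, lower in 8 of 9). Each of the 8 lost its unadjusted call with some 1 bird left out, and RIMS2 was at -0.51 without bird 450. RIMS2 averaged 42.2 ± 29.5 FPKM with and 60.1 ± 33.4 FPKM without cuticulosomes, and DENND6B 13.0 ± 11.0 FPKM with and 24.5 ± 12.0 FPKM without (SD, n = 9 each). LRRK2 was low in both, at 2.13 ± 1.47 FPKM with and 0.609 ± 1.13 FPKM without (SD, n = 9 each). RILPL1 was low too, at 2.43 ± 3.40 FPKM with and 0.353 ± 1.02 FPKM without (SD, n = 9 each), and listed at 0 in 4 and 7 libraries. USP6NL had medians of 2.57 FPKM with and 0.0254 FPKM without, with 3 libraries of each cell type at 0. Its highest library, with cuticulosomes, was at 34.2 FPKM.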

How the data were processed

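Each of 9 birds gave a library of hair cells with cuticulosomes and one without, 18 libraries in all (Smart-seq2 type cDNA, unstranded, single-end reads of 50 bases). Per the labels the authors aligned the reads with TopHat 1.4.1, estimated FPKM with bias correction in Cufflinks 1.3.0, counted with HTSeq 0.6.1p1 and compared the cell types in DESeq2 1.10.1 with the bird as a block. The genome build is not given by name in the sources used here. The deposited FPKM values were used unchanged. The columns of the authors' own comparison (mean normalised signal, fold change, its error, Wald score, p-value and adjusted p-value) were not used, and the negative controls were not analysed here. The table holds no counts per library, so the counting error of a value is unknown and no interval was computed. Relative depth was estimated from values below 0.3 FPKM; only 47.1% of the pairs of libraries lay within 0.1 (log2) of the fitted ratio, so that it is rough.

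Gene models with a mean FPKM above 1 (11393) were tested on log2(FPKM + 1) with limma 3.58.1 in R 4.3.3, with the bird as a block, an intensity trend and Benjamini-Hochberg adjustment. The methods of the study named a count test, which needs counts. The pairing comes from the bird numbers of the labels: over all tested gene models, deviations from the group means correlated by 0.121 to 0.591 between the libraries of a bird (median 0.183, against -0.0646 between birds). Taking deviations from group means pushes the values between birds to negative where those within a bird are positive. The libraries of a bird also share a run, so these correlations cannot tell bird from run. Single values were compared by an exact permutation test (two-sided) over the sign patterns of the differences of 9 birds, the exact sign-flip test, and paralogue levels with p adjusted over 18 pairs. Values of all libraries are summarised for the 8 members of highest mean level and the 5 of smallest p, and regulators are named at an unadjusted p under 0.05. Other members were described by their values after these had been seen. Members and lists were chosen with earlier results of these data known. RefSeq names matched 45 of 50 symbols. The RefSeq assembly is another than that of the files, so only names and neighbours were taken from it. Other steps ran in Python 3.11.15 (scipy 1.17.1, pandas 2.3.3, numpy 2.4.6), with plots by matplotlib 3.10.9. The fit across gene models was tested on simulated data. Alternatives were a fit without the block, a pseudocount of 0.1, no filter, FPKM above 1 in at least 9 libraries, upper-quartile scaling, and each bird and run left out. Median-ratio scaling, no trend, the comparison of runs and the settings for detected members were added after seeing the data.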

Additional observations from a re-analysis of the deposited data

Results flagged for a closer look

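Among the 13 gene models described in all libraries, 26 groups of 9 were examined for a single library far from the others on the log2(FPKM + 1) scale, and 3 were found, where chance gives about 1 in 20 groups. RAB11A (CLIV_013883) was at 50.8 FPKM in the library with cuticulosomes of bird 450, with the next lowest at 179.6 FPKM. RAB19 was at 26.4 FPKM in the library with cuticulosomes of bird 435, with the next lowest at 147.4 FPKM. RAB24 was at 0.0367 FPKM in the library without cuticulosomes of bird 515, with the next lowest at 11.2 FPKM.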

How the results depend on the processing

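The absence of any gene model past the adjusted threshold held under every alternative run, all of them limma on FPKM (smallest adjusted p 0.803 to 1). The count test of the study was not among them. Of 410 alternative fold changes 403 kept their sign, and of 221 for gene models called at an unadjusted p under 0.05, 75 were no longer called. The number of members higher at an unadjusted p under 0.05 was 3, and it was 1 without the replicate block that pairs the libraries of a bird, 1 with FPKM above 1 in at least 9 libraries (31 members tested), 1 without run 2 and 1 without run 3. With 1 bird left out it lay between 1 and 4, being 1 without bird 450, 451 or 515, and the number lower lay between 0 and 1. RAB24 was among them in every case. Over all gene models, the fit without the block gave 182 higher and 113 lower, against 372 and 229. RAB3B, RAB3A (CLIV_000225) and 4 of the 8 regulators (USP6NL, RILPL1, ERC2 and RIMS2) then lost their unadjusted call. With 1 bird left out, 17 of the 46 members tested changed sign. Among the members described in full, signs turned for 5: RAB11A (CLIV_013883) was at 0.050 without run 2, RAB19 at 0.0032 without run 1, RAB11B at -0.059 without run 3 and RAB18 at -0.014 without run 1, while with 1 bird left out RAB14 lay between -0.10 and 0.049 (0.015 without bird 458) and RAB18 between -0.059 and 0.21. The cause was not tested. With 1 bird left out the difference in members above 1 FPKM lay between 2.38 and 4.5, the highest without bird 434 (exact sign-flip p = 0.0156). Of 18 paralogue pairs, some of which share a gene model, 10 differed in level, and 9 to 10 with 1 bird left out, counts without a background share. The median log2 fold change of all gene models was 0.05, and 0.11 with a pseudocount of 0.1.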
